A study of Mus musculus with 11 samples.

Results

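Whether the aryl hydrocarbon receptor (Ahr) ligand FICZ acts alike on monocytes that do and do not receive the Notch ligand Jagged-1 (Jag1) was examined as a difference of differences in monocyte-derived Langerhans cell-like (mLC-like) cells. For each gene, the change with FICZ in cultures without Jag1 was subtracted from the change with FICZ in cultures with Jag1, and this difference is called the interaction. The members were the genes with at least 10 normalized counts in at least 2 of the 11 samples, which were 13095 of the 21860 genes of the table. Cells came from mouse bone marrow monocytes cultured for 6 days and sorted as CD11b-low EpCAM+, and each sample was sequenced as bulk RNA. The medium of all 4 groups compared held the myeloid growth factor GM-CSF (20 ng/ml) together with TGFβ (5 ng/ml) and IL-34 (8 µg/ml), which favour a Langerhans cell fate. No further agent was added in 2 samples, labelled TGFβ/IL-34 and called neither below. FICZ was added in 2 samples (TGFβ/IL-34/FICZ), Jag1 in 3 samples (TGFβ/IL-34/Jag1), and both in 3 samples (TGFβ/IL-34/Jag1/FICZ). The dose of FICZ is not given in the labels. By the sample descriptions, the experiment codes were AA47 and AA48 for neither and AA45 and AA47 for FICZ. Jag1 and both each held AA45, AA47 and AA48. The effect of FICZ without Jag1 is therefore in part confounded with experiment. The remaining sample, GM-CSF with Jag1 only (n = 1), entered the fit and none of the comparisons. Jag1 was presented by OP9 cells, a mouse stromal line. The labels list OP9 co-culture for every sample, yet the sample descriptions carry the code Jag or Mo, so the sources used here leave unclear whether cultures without Jag1 held OP9 cells that lack the ligand. If they held none, the ligand and the stromal cells cannot be told apart. FICZ is called an Ahr agonist by the study and an antagonist by the design text deposited with the data, and the study's term is followed. Nothing in the labels says that replicates came from separate mice, so p-values measure the spread between these samples, which was pooled over the groups and may in part be technical.

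Ahr is a transcription factor that rests in the cytoplasm, enters the nucleus when a ligand binds, and pairs with Arnt to switch on genes of foreign compound metabolism such as Cyp1a1 and Cyp1b1. Notch receptors are cut when they meet a ligand such as Jag1 on a neighbouring cell, and the freed intracellular part joins the DNA-binding protein Rbpj to turn on target genes. Langerhans cells, which populate the epidermis, express Ahr, and both pathways are studied for their part in how these cells form and persist.

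Depth was even across libraries, at 21.3 to 27.8 M normalized counts and an estimated 20.6 to 24.3 M reads each, and 3 reads corresponded to 2.68 to 3.44 normalized counts. Replicates of TGFβ/IL-34/FICZ stood apart from each other more than those of the other groups. The median gene had a standard deviation of 0.509 on the log2 scale between the FICZ libraries, against 0.115, 0.254 and 0.173 in neither, Jag1 and both. Genes of the cytosolic ribosome took 4.12% of the first FICZ library and 1.85% to 2.56% of the other 9. The sorted cells carried Epcam in every library (3952 to 14377 normalized counts). Cd207, which encodes langerin and defines Langerhans cells, was high in the Jag1 libraries alone, at 1366, 1784 and 1699, and stood at 157 and 154 with neither, 6.9 and 6.21 with FICZ and 8.39, 6.29 and 132 with both. Stromal collagen was carried by cultures with Jag1. Col1a1 stood at 191, 369 and 84.1 with Jag1 and 222, 625 and 1345 with both, against 3.84 and 0 with neither and 0 in both FICZ libraries, while Dcn was at 0 in all 10. Col1a2 was at 0 with neither and with FICZ, and at 69.1 to 823 in the libraries with Jag1 or both. Whether these values reflect which cultures held OP9 cells was not tested.

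FICZ had a different effect with Jag1 than without it on 182 genes (limma, adjusted p under 0.05), or 1.39% of the genes tested. The interaction was positive for 153 of them (1.17%) and negative for 29 (0.221%), whereas 53.2% of all genes tested had a positive value and the median over all genes was 0.067. The 182 genes were all protein coding. The libraries with Jag1 and no FICZ lay beyond all 7 others for 160 of the 182 genes, compared with 16.6% of all genes tested. The libraries with both agents lay beyond all others for 79, compared with 11.6% of all genes. The 182 genes were chosen by a contrast of these same libraries, so both shares follow in part from that choice and test nothing further. In the same fit, 2312 genes (17.7%) passed for FICZ with Jag1, 3 (0.0229%) for FICZ without Jag1, 864 (6.60%) for Jag1 without FICZ, 264 (2.02%) for Jag1 with FICZ and 587 (4.48%) for both against neither. These comparisons share samples and differ in the number and spread of their libraries, so the interaction, and not a comparison of these counts, carries the test of a difference.

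**Figure D1:**
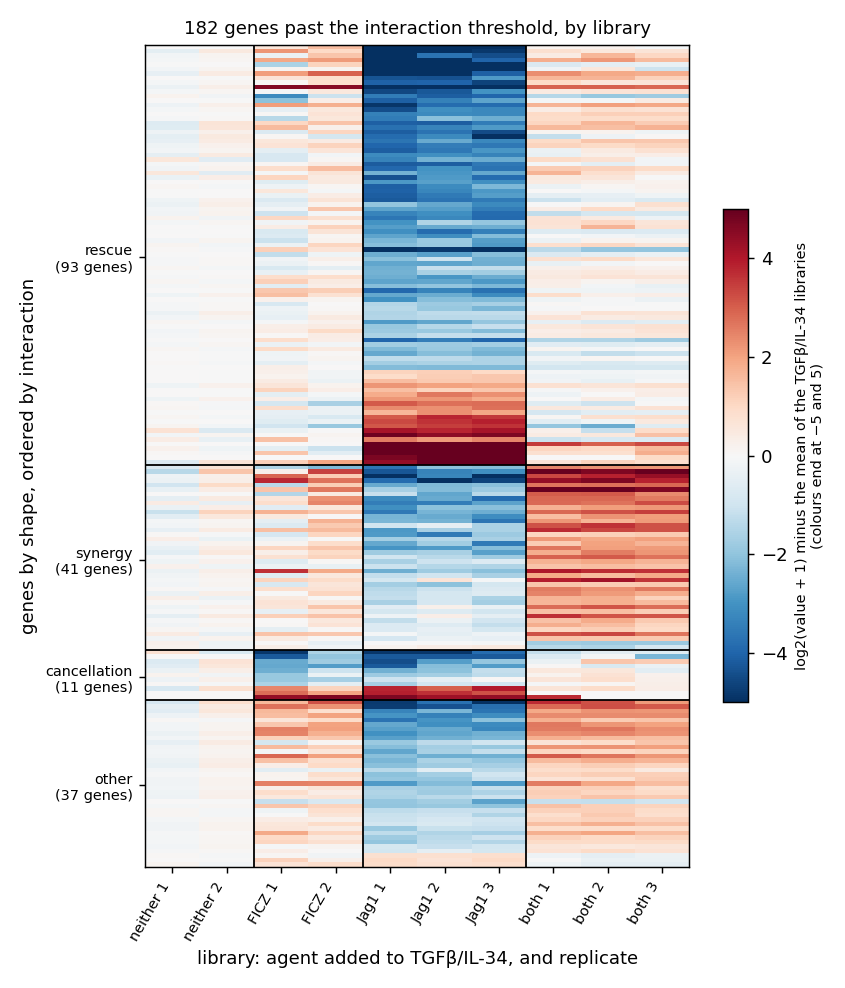
Log2(value + 1) of the 182 genes that passed the interaction test in each of the 10 libraries, minus the mean of the TGFβ/IL-34 libraries, with genes in rows by shape and libraries in columns by group. The 3 Jag1 libraries hold most of the strong colours, blue for most of the 93 rescue genes. In the rescue rows, the libraries with both agents return toward the pale level of neither and in some genes go past it. They are red in 39 of the 41 synergy rows.

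The number of genes depended on single libraries. With 1 library left out, 151 passed without FICZ replicate 1 and 5497 without FICZ replicate 2. Between 19 and 39 passed without any 1 library of both (28, 19 and 39 without replicates 1, 2 and 3), 67, 110 and 85 without Jag1 replicates 1, 2 and 3, and 30 and 9 without replicates 1 and 2 of neither. With libraries weighted by their own spread, which gave both FICZ libraries a weight of 0.151, 8 passed. They were Cyp1b1, Nt5e, Unc5b, Cd93, Pecam1, Aqp9, Gata2 and Siglecf, and every other gene of the 182 lost its call there. The main fit took the spread of a gene as equal in all groups. Its p-values therefore make no allowance for the wider spread of the FICZ libraries. FICZ replicate 1 and both replicate 1 were run on another flow cell than the rest. Within the flow cell of the other libraries 28 genes passed, and with the flow cell as a term 181. Of the 181, 160 were among the 182. With the experiment code of the sample descriptions as a term 44 passed, 41 of them among the 182. With that of the authors' table, which differs for 1 sample, 250 passed, but only 138 of them were among the 182. Each of the 182 genes kept the direction of its interaction under those of the 25 alternatives run that tested it, and some alternatives tested fewer genes. For each gene described below, the number of the 10 left-out fits in which it still passed follows its adjusted p, with the highest adjusted p among those 10 fits where it did not pass in all ("2 of 10, up to" a value). The fit without FICZ replicate 2 ended none of these calls, so 1 pass in each such number tells no genes apart. A gene given as 1 of 10 passed in that fit alone. Where the experiment code of the descriptions as a term ended the call, the adjusted p of that fit stands after the word code. This was so for 141 of the 182 genes. Without replicate 2 of neither the adjusted p was 0.0594 for Gata2, Cyp11a1 and Ret, 0.0749 for Itga2b, Ly6c2 and Plin2, 0.0787 for Cyp1a1 and 0.0952 for Cep131, genes that passed in 8 or 9 of the 10 fits. The further losses among these were Cyp1a1, Ly6c2 and Cep131 without replicate 2 of both (adjusted p = 0.0517, 0.0667 and 0.0544) and Plin2 without replicate 1 of neither (adjusted p = 0.0564).

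The genes that passed were sorted into shapes from their group means on the log2 scale relative to neither, which is a description without a test. Rescue meant that Jag1 alone moved a gene by at least 1 and both agents by at most a share of 0.5 of that. The direction with both could be opposite, as for Cyp1a1, at −6.06 with Jag1 alone and +2.94 with both. Rescue held for 93 genes (72 with a positive and 21 with a negative interaction). In the 72, the median change with Jag1 alone was −3.15 and that with both +0.30, and in the 21 these were +2.87 and +0.10. Synergy, in which both agents together lay at least 1 beyond all 3 other groups, held for 41 genes, of which 39 were higher with both. Cancellation held for 11. There FICZ alone moved a gene by at least 1, and both moved it by at most a share of 0.5 of that, either way. The other 37 genes met none of these. Of those, 34 had a positive interaction, with a median of −1.74 for Jag1 alone and +1.21 for both.

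**Figure D2:**
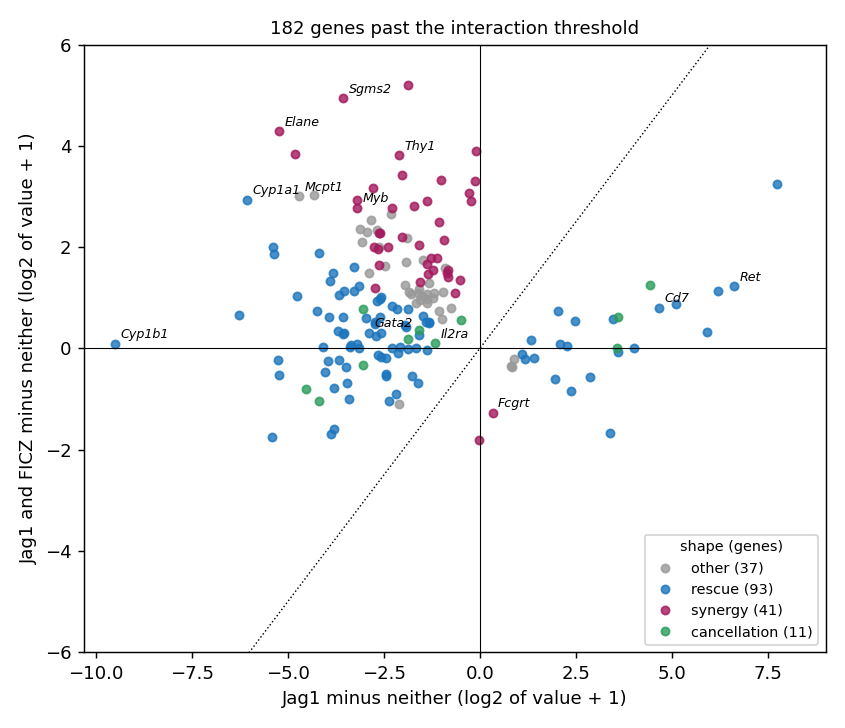
Change with Jag1 alone (x axis) and with Jag1 and FICZ (y axis), each relative to neither on log2(value + 1), for the 182 genes that passed, 1 point per gene coloured by shape. The dotted line marks equal changes. Most points lie to the left of zero and near or above the horizontal axis, with Cyp1b1 at −9.50 on the x axis and 0.09 on the y axis.

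Of the Ahr battery, the genes known to answer to Ahr ligands, 2 of 8 tested passed and both had positive interactions. The list had a median of 1.01, beside 0.067 over all genes. Cyp1b1, a cytochrome P450 that oxidizes foreign compounds and steroids, had the largest interaction of all genes that passed. It stood at 2570.2 and 2556 in TGFβ/IL-34, 3780.1 and 7391 with FICZ, 1.04, 4.76 and 2.8 with Jag1, and 2868, 2996 and 2384 with both (normalized counts per library). The Jag1 libraries were at the limit of a few reads, and those with both overlapped none of the FICZ libraries but lay close to the level of neither (interaction 8.55, SE 0.58, adjusted p = 0.00048, 10 of 10). In the single culture with GM-CSF and Jag1 only, it stood at 40.9. On the linear scale the gain with FICZ was smaller with Jag1 than without it (difference of differences −276 normalized counts), so the positive interaction of Cyp1b1 belongs to the log scale. Cyp1a1, the classical Ahr target, was found at 68.1 and 100.1 in TGFβ/IL-34, 2079 and 1933 with FICZ, 0, 0 and 0.985 with Jag1, and 644, 671 and 604 with both. Here the FICZ libraries were the highest and the Jag1 libraries were at or near 0 (interaction 4.41, SE 0.55, adjusted p = 0.0082, 8 of 10, up to 0.0787). On the linear scale its gain was likewise smaller with Jag1 (−1283 normalized counts). The fitted size of both interactions depends on the pseudocount of 1, since Jag1 libraries at 0 to 4.76 set it. Nqo1, a quinone reductase, had 158 and 173 in TGFβ/IL-34, 568 and 348 with FICZ, 31.8, 11.4 and 4.93 with Jag1, and 414, 271 and 163 with both, an interaction of 2.88 (SE 0.91) that did not pass (adjusted p = 0.156). Ahrr, the repressor of Ahr, had an interaction of 1.21 (adjusted p = 0.1) and Tiparp one of 0.67 (adjusted p = 0.275). Ahr itself stood at 5561 and 5170.4 in TGFβ/IL-34, 916 and 3085 with FICZ, 8693, 8262 and 11356 with Jag1, and 3071, 3203 and 5132 with both, and its interaction was 0.33 (adjusted p = 0.752).

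The region upstream of the start site is shown for Cyp1b1 and Cyp1a1, the 2 genes of the Ahr battery that passed. It is also shown for Nt5e, a gene outside the Ahr battery that passed under every alternative run. Each is 300 bases before the start of the canonical transcript, read 5′ to 3′ on the gene's own strand from GRCm39 with GENCODE vM39, and capitals mark the Ahr response core GCGTG or its reverse complement.
Cyp1b1, chr17:80022533-80022832, minus strand: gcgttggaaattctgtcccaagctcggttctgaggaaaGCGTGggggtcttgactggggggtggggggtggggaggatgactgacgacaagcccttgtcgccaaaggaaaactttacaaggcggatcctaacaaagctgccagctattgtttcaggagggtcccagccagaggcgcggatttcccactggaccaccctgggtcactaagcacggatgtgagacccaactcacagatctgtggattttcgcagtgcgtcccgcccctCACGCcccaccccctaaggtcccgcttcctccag
Cyp1a1, chr9:57603842-57604141, plus strand: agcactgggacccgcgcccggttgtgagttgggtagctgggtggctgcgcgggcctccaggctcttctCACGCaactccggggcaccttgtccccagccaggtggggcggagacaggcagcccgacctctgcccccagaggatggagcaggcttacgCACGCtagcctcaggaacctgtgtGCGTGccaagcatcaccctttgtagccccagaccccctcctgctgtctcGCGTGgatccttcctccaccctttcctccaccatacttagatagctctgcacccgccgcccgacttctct
Nt5e, chr9:88208789-88209088, plus strand: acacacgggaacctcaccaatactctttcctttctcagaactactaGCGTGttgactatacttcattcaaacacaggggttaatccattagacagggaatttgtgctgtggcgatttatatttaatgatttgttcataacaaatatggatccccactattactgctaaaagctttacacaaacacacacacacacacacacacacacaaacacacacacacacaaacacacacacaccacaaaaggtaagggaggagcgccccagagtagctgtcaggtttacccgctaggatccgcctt
The core occurred 2 times upstream of Cyp1b1, 4 times upstream of Cyp1a1 and 1 time upstream of Nt5e. It is short and common, and on both strands 43.5% of the 13070 genes tested with a window held it, beside 33.3% of the 153 genes with a positive and 34.5% of the 29 with a negative interaction. The Rbpj motif TGGGAA was found upstream of 25.6% of all genes, 23.5% of the positive and 20.7% of the negative ones. The GATA motif AGATAA was found in 9.48%, 10.5% and 17.2%. The motif TTTGAA, which occurs in promoters of mitotic genes, was found in 16.1% of all windows and in 7 of the 20 mitosis genes (35.0%). These windows do not cover enhancers or first introns, and a match is no measured binding site.

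A set of 9 genes passed with any 1 of the 10 libraries left out. Besides Cyp1b1 they were Nt5e, Unc5b, Cd93, Pecam1, Aqp9, Cebpe, Cd7 and Smim5, chosen after their values were seen. Cyp1b1, Nt5e, Unc5b, Cd93 and Pecam1 also passed under all 15 other alternatives. With libraries weighted by their own spread, Cebpe, Cd7 and Smim5 did not pass (limma, adjusted p = 0.0967, 0.141 and 0.207). With a minimum change of 2-fold, Aqp9 and Smim5 did not pass (limma, adjusted p = 0.0574 and 0.0532). Nt5e encodes CD73, the surface enzyme that makes adenosine from AMP. It was measured at 1023 and 1404 in TGFβ/IL-34, 1916 and 2593 with FICZ, 76, 107 and 99.6 with Jag1, and 2599, 2313 and 2622 with both. The Jag1 libraries were the lowest by a wide margin, and those with both lay above those with neither (interaction 3.84, SE 0.32, adjusted p = 0.00174, 10 of 10). Unc5b, a netrin receptor, had 5012 and 5643 in TGFβ/IL-34, 5657 and 7042 with FICZ, 297, 303 and 443 with Jag1, and 4916, 3776 and 4902 with both. Its libraries with both lay just below those with neither (interaction 3.47, SE 0.31, adjusted p = 0.00174, 10 of 10). Cd93, a surface glycoprotein of early myeloid and endothelial cells, was at 845 and 964 in TGFβ/IL-34, 948 and 1637 with FICZ, 53.5, 55.2 and 35.2 with Jag1, and 1802, 1361 and 1421 with both (interaction 4.52, SE 0.41, adjusted p = 0.00174, 10 of 10). Pecam1, the adhesion molecule CD31, was at 1131 and 1344 in TGFβ/IL-34, 2749.6 and 3138 with FICZ, 186, 235 and 250.2 with Jag1, and 4199.9, 3703 and 3534 with both. Its libraries with FICZ lay above those with neither, and those with both were the highest (interaction 2.84, SE 0.26, adjusted p = 0.00177, 10 of 10). Aqp9, a channel for water and glycerol, had 3153 and 3424 in TGFβ/IL-34, 2708 and 3442 with FICZ, 536, 532 and 598 with Jag1, and 2529.9, 2992 and 3299.6 with both, so that 3 groups overlapped and Jag1 alone stood apart (interaction 2.50, SE 0.25, adjusted p = 0.00295, 10 of 10).

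**Figure D3:**
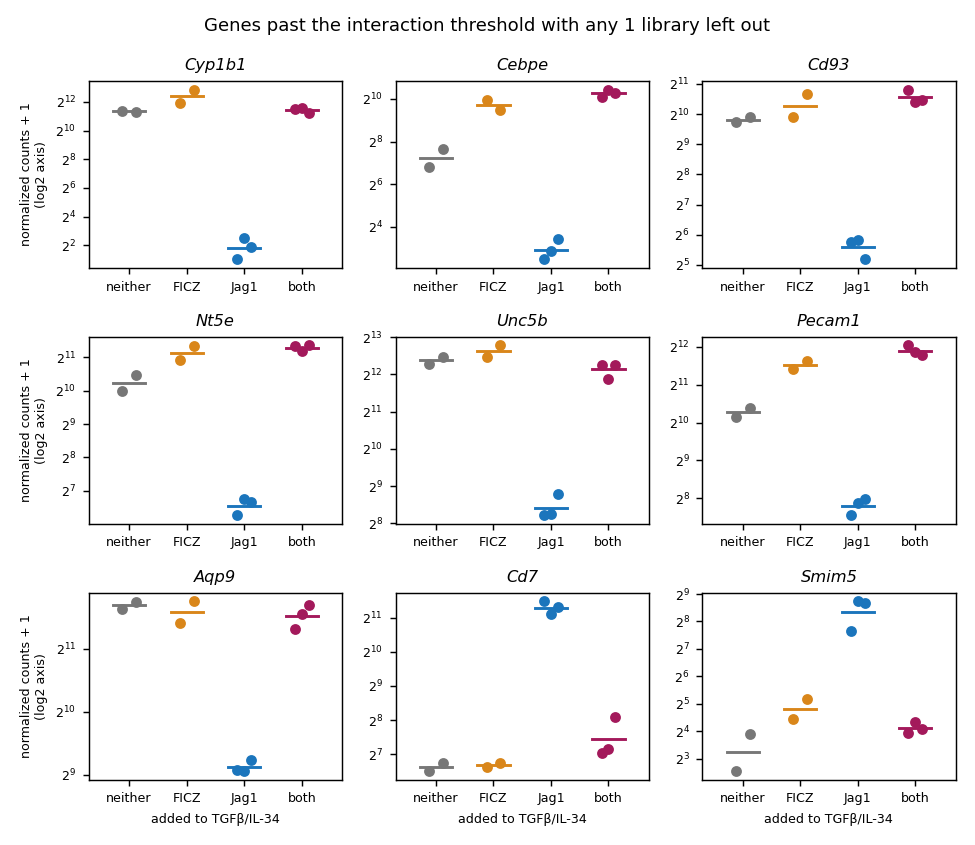
Normalized counts + 1 per library on a log2 axis for the 9 genes that passed with any 1 library left out, by the agent added to TGFβ/IL-34, 1 point per library with a line at the mean of the log2 values. The 3 Jag1 libraries lie below all others in 7 panels and above all others in those of Cd7 and Smim5.

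Genes of granulocytes and monocytes were among those at their lowest with Jag1 alone. Of 16 tested genes of neutrophil granules and granulocyte progenitors 3 passed, all positive, and 9 had an unadjusted p under 0.05, which 18.8% of all genes tested had (median 2.81). Cebpe, a transcription factor of late granulocyte differentiation, was found at 109.7 and 203 in TGFβ/IL-34, 995 and 704 with FICZ, 4.54, 6.25 and 9.89 with Jag1, and 1079, 1386 and 1248 with both. Libraries with both lay above those with FICZ alone, and those with Jag1 alone lay far below those with neither (interaction 4.86, SE 0.53, adjusted p = 0.00562, 10 of 10). Elane encodes neutrophil elastase and had 120.2 and 176 in TGFβ/IL-34, 1978 and 964 with FICZ, 9.07, 0 and 4.97 with Jag1, and 3050.1, 3694 and 2094 with both. The libraries with both exceeded every other library (interaction 6.28, SE 1.13, adjusted p = 0.0382, 4 of 10, up to 0.216). Mmp8, neutrophil collagenase, stood at 159 and 308 in TGFβ/IL-34, 1036 and 438 with FICZ, 0, 2.08 and 6.87 with Jag1, and 386, 319.8 and 349 with both (interaction 5.32, SE 1.03, adjusted p = 0.043, 3 of 10, up to 0.241, code 0.0817). On the linear scale its gain was smaller with Jag1 (−155 normalized counts). Ngp, a neutrophil granule protein, was at 44.4 and 205 in TGFβ/IL-34, 253 and 488 with FICZ, 37.4, 76 and 65.3 with Jag1, and 2607, 3972 and 2405 with both, which did not pass (interaction 3.78, adjusted p = 0.0594). Mpo, a defining enzyme of early neutrophil granules, was at or below 12.2 in all 10 libraries. The list summed to 474 to 544 normalized counts with Jag1 and 11289 to 16199 with both, at most 0.0749% of a library. In bulk samples, fewer cells of a type and less of their RNA per cell cannot be told apart.

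Of 11 classical monocyte genes tested, 2 passed, and 10 had an unadjusted p under 0.05, all positive (median 2.85). Ly6c2, the surface antigen of circulating inflammatory monocytes, was measured at 177 and 436 in TGFβ/IL-34, 569.9 and 757 with FICZ, 15.3, 15 and 23.6 with Jag1, and 586, 881 and 677 with both (interaction 4.01, SE 0.56, adjusted p = 0.0135, 8 of 10, up to 0.0749). Ccr2, the receptor that draws monocytes out of the marrow, differed in shape. It was at 318 and 253 in TGFβ/IL-34, 30.8 and 134 with FICZ, 24.2, 15.4 and 17.1 with Jag1, and 104, 76.1 and 83.1 with both, highest with neither, lower with FICZ alone and lowest with Jag1 alone (interaction 4.29, SE 0.76, adjusted p = 0.0369, 2 of 10, up to 0.205, code 0.0745). Plac8 had 303 and 586 in TGFβ/IL-34, 3153 and 2796 with FICZ, 46.3, 108 and 97.2 with Jag1, and 3091, 3417 and 2832 with both and just missed the threshold (interaction 2.47, adjusted p = 0.0541). Vcan, the proteoglycan versican, did not pass either (interaction 5.17, adjusted p = 0.0632).

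Mast cell and basophil genes followed with 3 of 9 passed, all positive, and 7 at an unadjusted p under 0.05 (median 2.25). Gata2, a transcription factor of progenitors and mast cells, was at 4396 and 4164 in TGFβ/IL-34, 2809.7 and 6006 with FICZ, 586, 646 and 504 with Jag1, and 5860.2, 5259 and 4822 with both. Libraries with both lay above those with neither, the FICZ libraries lay to either side of these, and Jag1 alone lay far below all (interaction 3.26, SE 0.39, adjusted p = 0.00631, 9 of 10, up to 0.0594). Cpa3, a carboxypeptidase stored in mast cell granules, stood at 607 and 781 in TGFβ/IL-34, 3941 and 3889 with FICZ, 95.4, 152 and 95.7 with Jag1, and 4053, 2653 and 1984 with both. Libraries with FICZ overlapped with and without Jag1, and on the linear scale the gain was smaller with Jag1, with a difference of −439 normalized counts (interaction 2.12, SE 0.44, adjusted p = 0.0472, 2 of 10, up to 0.276, code 0.0781). Mcpt1, a mast cell protease, was at 155 and 498 in TGFβ/IL-34, 858 and 2517 with FICZ, 9.07, 19.8 and 4.96 with Jag1, and 3659, 2542 and 1209 with both (interaction 5.30, SE 1.00, adjusted p = 0.0427, 2 of 10, up to 0.232, code 0.0759). Its near relative Mcpt2, with which it may share reads, had an interaction of 5.70 that did not pass (adjusted p = 0.0587). Further genes of this lineage did not pass, Ms4a2, a chain of the high-affinity IgE receptor (interaction 4.41, adjusted p = 0.0623), and Hdc, which makes histamine (interaction 2.25, adjusted p = 0.0774). Among defining markers, Fcer1a was at 0 in all 10 libraries, and Kit, the stem cell factor receptor, was present in all at 945 to 2302 with an interaction of −0.15 (adjusted p = 0.865). All 5 eosinophil genes tested had a positive interaction at an unadjusted p under 0.05 and 1 passed, Siglecf, a sialic acid receptor of eosinophils and some macrophages, at 865 and 873 in TGFβ/IL-34, 286 and 1866 with FICZ, 18.8, 24.3 and 24.2 with Jag1, and 529.6, 618 and 666 with both (interaction 4.94, SE 0.84, adjusted p = 0.0348, 2 of 10, up to 0.201, code 0.054). The FICZ libraries differed widely from each other in Siglecf. Epx and Prg2, eosinophil granule proteins, stood at 990.3, 314 and 733 and 805, 253 and 801 with both and did not pass (adjusted p = 0.155 and 0.233). The mast cell and basophil list took 0.00832% to 0.013% of the libraries with Jag1 and 0.0528% to 0.0798% of those with both, and the part of such cells in these results was not tested.

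**Figure D4:**
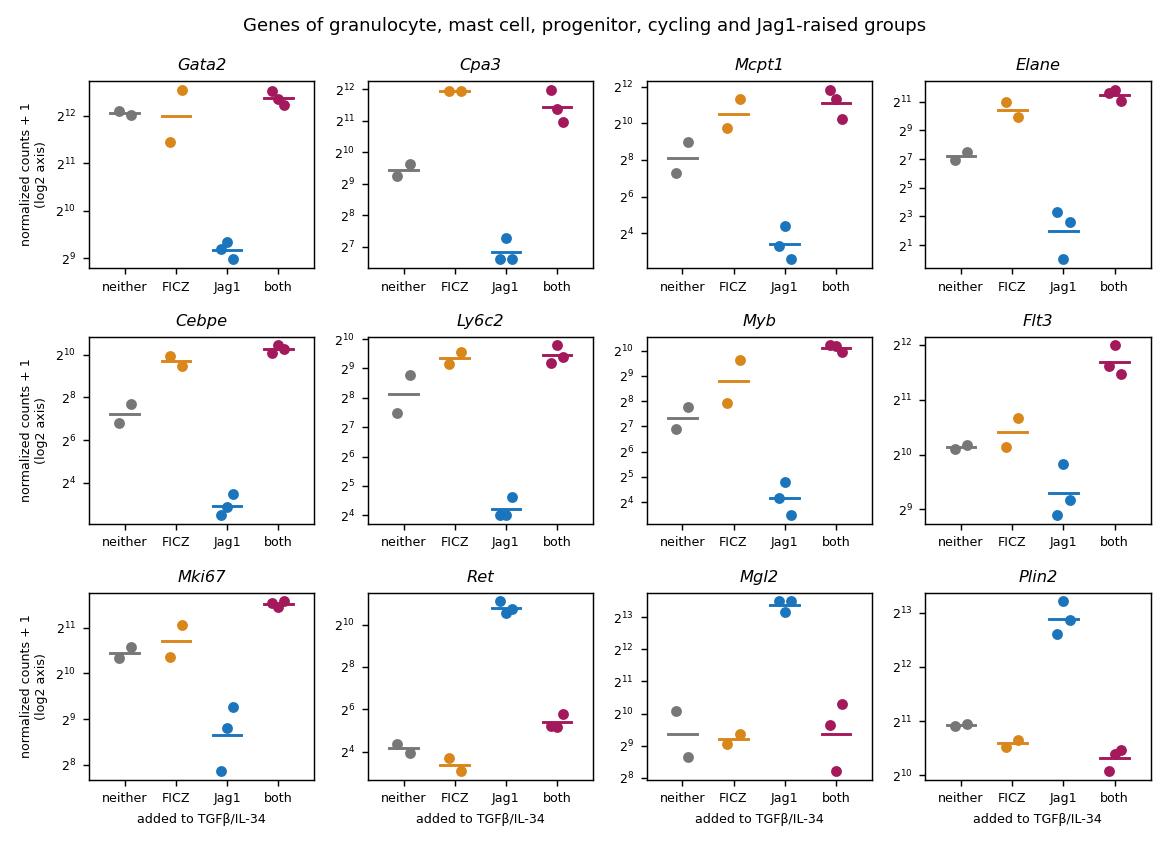
Normalized counts + 1 per library on a log2 axis for 12 genes of the mast cell, granulocyte, monocyte, progenitor and cell cycle groups and of the genes highest with Jag1, by the agent added to TGFβ/IL-34, 1 point per library with a line at the mean of the log2 values. In Gata2, Cpa3, Mcpt1, Elane, Cebpe, Ly6c2, Myb, Flt3 and Mki67 the Jag1 libraries are the lowest, and in Ret, Mgl2 and Plin2 they are the highest.

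Of 11 haematopoietic progenitor genes tested 4 passed, all positive, and 9 had a positive value (median 1.84), and Gata2 counts here as well. Myb, a transcription factor of immature blood cells, was measured at 118 and 216 in TGFβ/IL-34, 244 and 789.5 with FICZ, 16.6, 27 and 10.1 with Jag1, and 1182, 1160.1 and 972 with both. All libraries with both exceeded all others (interaction 4.51, SE 0.74, adjusted p = 0.0293, 4 of 10, up to 0.201, code 0.0621). Flt3, the receptor for the growth factor FLT3 ligand, stood at 1094 and 1160.2 in TGFβ/IL-34, 1127 and 1633 with FICZ, 475, 909 and 577 with Jag1, and 3142, 4058 and 2829 with both (interaction 2.12, SE 0.40, adjusted p = 0.0424, 2 of 10, up to 0.227, code 0.0502). Cd34, a sialomucin of progenitors, differed in shape, with 4698 and 4497 in TGFβ/IL-34, 3977 and 4796 with FICZ, 769.6, 1039 and 902 with Jag1, and 2699.8, 1952 and 2157 with both. Its level with both remained below that of neither and FICZ (interaction 1.40, SE 0.28, adjusted p = 0.0431, 1 of 10, up to 0.232, code 0.0999). Sox4 (interaction 2.33, adjusted p = 0.124) and Lin28a (interaction 2.89, adjusted p = 0.163) did not pass. Outside the lists, Gfi1b, a transcriptional repressor that acts in the erythroid and megakaryocyte lineages, was at 35.2 and 50.7 in TGFβ/IL-34, 123 and 172 with FICZ, 4.68, 3.21 and 4.05 with Jag1, and 222, 222 and 220.3 with both (interaction 3.73, SE 0.52, adjusted p = 0.0135, 5 of 10, up to 0.117, code 0.054). Dach1, a transcriptional regulator, was low throughout and highest with both, at 67.9, 60 and 55.6 (interaction 6.75, SE 1.00, adjusted p = 0.0174, 6 of 10, up to 0.129, code 0.0613). Itga2b, the integrin CD41 of platelets and early progenitors, had 1924 and 2151 in TGFβ/IL-34, 5322 and 4432 with FICZ, 516, 543 and 509 with Jag1, and 5568, 4614 and 4423 with both (interaction 1.96, SE 0.23, adjusted p = 0.00631, 9 of 10, up to 0.0749). Libraries with FICZ overlapped with and without Jag1.

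Among cell cycle genes, those of mitosis passed in part and those of DNA replication did not. Of 20 mitosis and spindle genes all 20 had a positive interaction, 19 had an unadjusted p under 0.05 and 5 passed (median 1.74). Mki67, the proliferation marker, stood at 1283 and 1521 in TGFβ/IL-34, 1308 and 2116 with FICZ, 232, 448 and 616 with Jag1, and 2979, 2802 and 3049 with both. It was lowest with Jag1 and highest with both (interaction 2.62, SE 0.50, adjusted p = 0.043, 3 of 10, up to 0.233, code 0.0648). Top2a, which untangles DNA, had an interaction of 1.71 (adjusted p = 0.0424, 3 of 10, up to 0.234, code 0.0817), with 724 ± 181 (SD, n = 3) with Jag1 and 3921 ± 209 (SD, n = 3) with both. Plk1, a mitotic kinase, stood at 133 ± 22.4 and 819.8 ± 73 (SD, n = 3 each; interaction 2.02, SE 0.34, adjusted p = 0.0318, 4 of 10, up to 0.216, code 0.0648). Cenpe, a kinetochore motor, and Nusap1, a spindle protein, passed at 2.06 and 1.74 (adjusted p = 0.0353, 3 of 10, up to 0.216, code 0.0781, and adjusted p = 0.0478, 1 of 10, up to 0.293, code 0.112). Of cyclins and their kinase, Ccnb1 (2.83, adjusted p = 0.071), Ccna2 (2.35, adjusted p = 0.0667) and Cdk1 (1.45, adjusted p = 0.0857) did not pass. None of 22 DNA replication genes passed by limma (median 1.15), with 14 positive at an unadjusted p under 0.05, such as the helicase subunit Mcm6 (1.41, adjusted p = 0.0615). The mitosis list took 0.0424% to 0.0568% of the libraries with neither, 0.0539% to 0.0746% with FICZ, 0.0129% to 0.0245% with Jag1 and 0.0964% to 0.0977% with both, ranges that did not overlap between Jag1 and any other group.

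**Figure D5:**
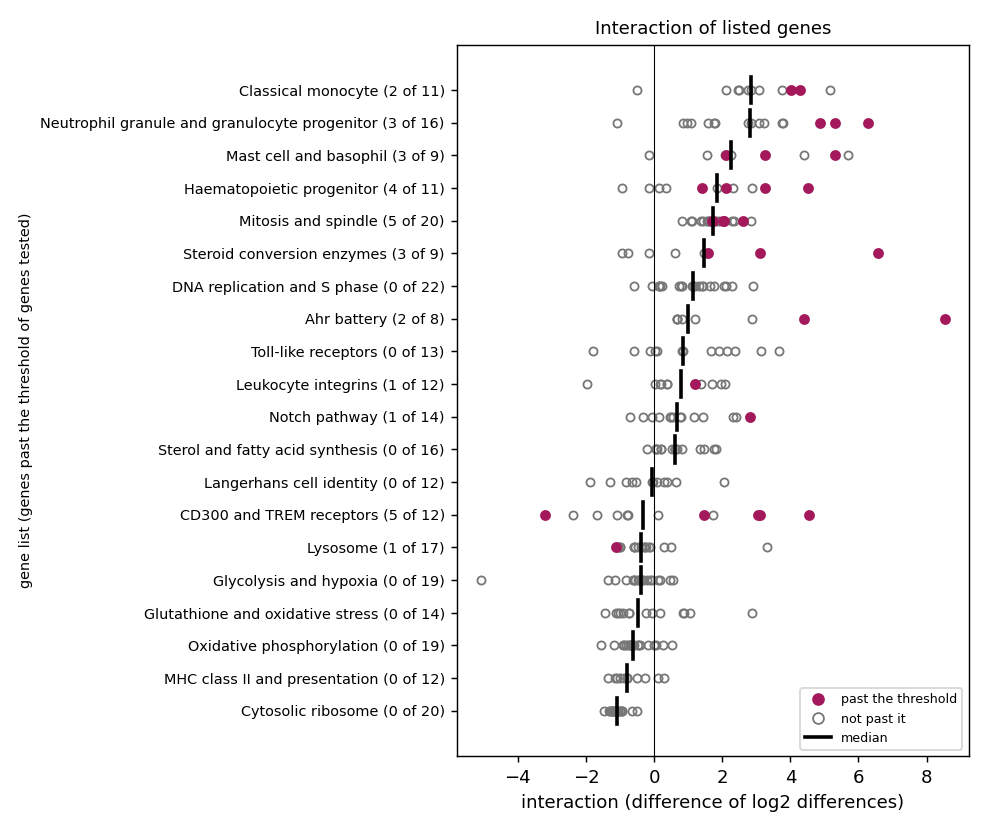
Interaction of each tested gene of 20 gene lists, those with the 8 lowest and 12 highest medians, with 1 circle per gene, filled for genes that passed, and a bar at the median of the list. Monocyte, granulocyte, mast cell, progenitor and mitosis genes lie mostly right of zero, and all 20 cytosolic ribosome genes lie left of it without passing.

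The Notch pathway gave 1 gene that passed of 14 tested (median 0.67), beside 1.39% of all genes. Of the 14, 2 had an unadjusted p under 0.05, which 18.8% of all genes tested had. Notch1 was found at 5541 and 5355 in TGFβ/IL-34, 3347 and 5812 with FICZ, 881, 625 and 1196 with Jag1, and 5501, 5016 and 4396 with both. It was lowest with Jag1, and the libraries with both overlapped those of neither and FICZ (interaction 2.81, SE 0.41, adjusted p = 0.0164, 6 of 10, up to 0.102, code 0.0598). Notch2 (1.45, adjusted p = 0.212), Rbpj (0.57, adjusted p = 0.332) and Nrarp, a feedback inhibitor that Notch induces (0.77, adjusted p = 0.392), did not pass. Other surface receptors were split. Of 12 listed receptors of the CD300 and TREM families tested 5 passed, 4 positive and 1 negative (median −0.33). The list does not hold all members of these families. Outside it, Treml2 passed with a positive interaction and Cd300ld3 (below) with a negative one. Trem1, which amplifies inflammatory signals, stood at 2053 and 2062 in TGFβ/IL-34, 1646 and 2644 with FICZ, 116, 176 and 303 with Jag1, and 1491, 1535 and 1780.3 with both (interaction 3.10, SE 0.50, adjusted p = 0.0268, 5 of 10, up to 0.172). Trem3 and Treml4 behaved alike, with 2.38 ± 2.24 and 19.7 ± 4.6 (SD, n = 3) with Jag1 and 120.3 ± 24 and 165 ± 30.9 (SD, n = 3) with both (interactions 4.56 and 3.04, adjusted p = 0.0293, 4 of 10, up to 0.188, code 0.0711, and adjusted p = 0.0433, 1 of 10, up to 0.259, code 0.0735). Cd300lf, an inhibitory receptor, had a small and even interaction (interaction 1.46, SE 0.23, adjusted p = 0.0261, 5 of 10, up to 0.216, code 0.0648). In the opposite direction, Cd300c2 was highest with Jag1 alone, at 189 and 196 in TGFβ/IL-34, 125 and 152 with FICZ, 1889.7, 2335 and 2888 with Jag1, and 135, 165 and 271 with both (interaction −3.20, SE 0.43, adjusted p = 0.0123, 7 of 10, up to 0.0883). Cd300e had 4232, 6841 and 7493 with Jag1 and 18.6, 37.6 and 171 with both, yet its interaction did not pass (−2.37, adjusted p = 0.268), and it stood at 0 in both FICZ libraries, so the size of the effect without Jag1 is not measured at this depth. Genes of these families are alike in sequence and may share reads.

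The 29 genes with a negative interaction were chiefly genes that stood high with Jag1 alone and low in the other groups, and 21 of them were rescue genes. Ret, a receptor tyrosine kinase for ligands of the GDNF family, stood at 19.7 and 14.6 in TGFβ/IL-34, 12 and 7.46 with FICZ, 2199, 1502 and 1693 with Jag1, and 36.5, 34.6 and 54.3 with both. It rose by 6.63 on the log2 scale with Jag1 alone (limma, adjusted p = 2.45e-05), and with both it differed from neither by 1.23, which did not pass (interaction −4.63, SE 0.53, adjusted p = 0.00562, 9 of 10, up to 0.0594). Cd7, an immunoglobulin superfamily receptor best known from T and NK cells, was at 89.9 and 106 in TGFβ/IL-34, 97.5 and 107 with FICZ, 2847, 2209 and 2508 with Jag1, and 131, 142 and 272 with both (interaction −3.93, SE 0.44, adjusted p = 0.00562, 10 of 10). The T and NK cell list did not share this pattern. It summed to 2.27 to 20 normalized counts with Jag1, where Cd7 was highest, 7.9 to 13 with neither, 53.2 to 162 with FICZ and 199 to 408 with both. None of its 5 genes tested passed the interaction by limma, 1 had an unadjusted p under 0.05, and all 5 had positive values (median 1.17). Of its defining markers, Cd3e reached 6.71, Cd3d 36.8 and Ncr1 3.13 in the highest library, and all 3 were at 0 in the Jag1 libraries. Smim5, a small membrane protein, had 4.86 and 14.1 in TGFβ/IL-34, 20.6 and 35.6 with FICZ, 198, 426 and 404 with Jag1, and 14.2, 19.3 and 16 with both (interaction −5.81, SE 0.76, adjusted p = 0.00964, 10 of 10). Mgl2, the lectin CD301b of dendritic cells, was measured at 1086 and 398 in TGFβ/IL-34, 526 and 652 with FICZ, 11559, 9120.0 and 11545 with Jag1, and 795, 295 and 1250.4 with both (interaction −3.84, SE 0.77, adjusted p = 0.0444, 1 of 10, up to 0.249, code 0.101). Plin2, the coat protein of lipid droplets, stood at 1920.2 and 1965 in TGFβ/IL-34, 1476 and 1598 with FICZ, 6219.7, 9485 and 7414 with Jag1, and 1077, 1344 and 1421 with both. With both agents it lay below all libraries without Jag1 (interaction −2.24, SE 0.28, adjusted p = 0.00835, 8 of 10, up to 0.0749). It was the only gene of 12 for fatty acid uptake and storage to pass. Slc16a11, of the monocarboxylate transporter family, was near the floor outside Jag1 and had 501, 315 and 169 there (interaction −5.51, SE 0.97, adjusted p = 0.0365, 2 of 10, up to 0.212, code 0.0728). Sectm1b and Cd300ld3 were at 0 in both groups without Jag1, and with both agents they stood at 10.2, 6.94 and 8.78 and 0, 0 and 0.93, against 321, 163 and 181 and 24.9, 80.1 and 105 with Jag1. Their interactions (adjusted p = 0.0424, 1 of 10, up to 0.216, code 0.097, and adjusted p = 0.049, 1 of 10, up to 0.238, code 0.0735) rest on the effect of FICZ with Jag1 alone.

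Cep131, a centrosome protein, had 1449 ± 209.6 with Jag1 and 154 ± 22.2 with both (SD, n = 3 each; interaction −3.98, SE 0.54, adjusted p = 0.0128, 8 of 10, up to 0.0952). Rab3il1, an exchange factor for Rab proteins, was at 1249 ± 212 and 41.9 ± 29.7 (SD, n = 3 each; interaction −3.66, SE 0.71, adjusted p = 0.043, 2 of 10, up to 0.234, code 0.0645). Aoc1, a diamine oxidase that degrades histamine, was at 1274 ± 321 and 173 ± 47.7 (SD, n = 3 each; interaction −2.28, SE 0.44, adjusted p = 0.043, 1 of 10, up to 0.235, code 0.0621). In these genes, too, the Jag1 libraries exceeded all others. Ctsb, the lysosomal protease cathepsin B, was abundant and changed little but evenly, at 10559 and 9514 in TGFβ/IL-34, 10610.0 and 8883 with FICZ, 17520.0, 17671 and 17750.0 with Jag1, and 8351, 7286 and 8155 with both (interaction −1.11, SE 0.22, adjusted p = 0.0439, 2 of 10, up to 0.291, code 0.105). It was the single gene of 17 lysosomal genes to pass (median −0.37). Fcgrt, the neonatal Fc receptor, was the 1 of 7 Fc receptor genes to pass, and a rare case of synergy downward. It was at 2371 and 1854 in TGFβ/IL-34, 2545 and 1873 with FICZ, 2363, 2684 and 2916 with Jag1, and 796, 726 and 1142 with both, lower with both than in any other library (interaction −1.66, SE 0.33, adjusted p = 0.0433, 1 of 10, up to 0.268, code 0.0818).

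Enzymes of steroids and lipids were represented in the synergy and other shapes. Of 9 steroid conversion enzymes tested 3 passed, all positive (median 1.47). Cyp11a1, which starts steroid synthesis from cholesterol, was found at 757 and 927 in TGFβ/IL-34, 4747 and 3431 with FICZ, 125, 145 and 86.3 with Jag1, and 5082, 5428 and 4237 with both. The FICZ libraries with and without Jag1 overlapped, while the Jag1 libraries lay far below those with neither (interaction 3.12, SE 0.35, adjusted p = 0.00562, 9 of 10, up to 0.0594). Akr1c18, which inactivates progesterone, stood at 40.4 and 56.4 in TGFβ/IL-34, 368 and 118 with FICZ, 0, 4.09 and 0 with Jag1, and 494, 699 and 999 with both (interaction 6.57, SE 1.05, adjusted p = 0.0268, 4 of 10, up to 0.181, code 0.0648). Akr1c13 of the same family passed as well (interaction 1.59, SE 0.31, adjusted p = 0.043, 3 of 10, up to 0.249, code 0.103). Outside the list, Akr1c12 of this family also passed, with an interaction of 2.51. Members of this family may share reads. Both sphingomyelin synthases passed among 11 sphingolipid genes (median 0.06). Sgms2 was at 6.37 and 49.4 in TGFβ/IL-34, 21.9 and 206 with FICZ, 0, 0.921 and 1.3 with Jag1, and 625, 485 and 685 with both (interaction 6.66, SE 1.36, adjusted p = 0.0459, 1 of 10, up to 0.249, code 0.0944). Sgms1 returned only in part, with 251 and 319 in TGFβ/IL-34, 136 and 267 with FICZ, 27.8, 33 and 18.7 with Jag1, and 119, 153 and 154 with both (interaction 2.97, SE 0.53, adjusted p = 0.0365, 3 of 10, up to 0.219, code 0.0711). Lipg, endothelial lipase, showed one of the clearest excesses with both, at 9.54 and 17 in TGFβ/IL-34, 35.5 and 85.1 with FICZ, 3.4, 2.07 and 2.93 with Jag1, and 597, 620.0 and 352 with both (interaction 5.05, SE 0.70, adjusted p = 0.013, 7 of 10, up to 0.0973, code 0.0513). Pla2g7, which degrades platelet-activating factor, was the 1 of 13 prostanoid and leukotriene genes to pass (interaction 1.73, SE 0.34, adjusted p = 0.0432, 2 of 10, up to 0.243, code 0.0559). Ptgis, prostacyclin synthase, had 5054, 6007 and 8307 with Jag1 and 96.3, 41.5 and 309 with both, an interaction of −4.73 that did not pass (adjusted p = 0.0834).

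Thy1, a surface glycoprotein of stroma and T cells, was the 1 gene of the 13 tested from the OP9 list to pass. It was measured at 789.5 and 1185 in TGFβ/IL-34, 12178 and 3578 with FICZ, 177, 284 and 228 with Jag1, and 16084, 13020.0 and 12187 with both (interaction 3.15, SE 0.61, adjusted p = 0.043, 2 of 10, up to 0.241, code 0.0711). The FICZ libraries held abundant Thy1 where Col1a1 was at 0, and the Jag1 libraries held Col1a1 with little Thy1, so its level did not follow the stromal collagens across groups. The OP9 list had a median interaction of 1.64 and summed to 818 to 1213 normalized counts with neither, 3671 to 12232 with FICZ, 686 to 1517 with Jag1 and 15118 to 17445 with both, most of which was Thy1 in the groups with FICZ. The part of stromal RNA in the results was not tested. Bgn, a matrix proteoglycan, did not pass (interaction 3.23, adjusted p = 0.285). Other large interactions lay outside the lists. Apol7c, an apolipoprotein L, had 123 ± 85.4 with Jag1 and 5906 ± 2472 with both (SD, n = 3 each; interaction 5.25, SE 0.97, adjusted p = 0.04, 3 of 10, up to 0.216). Dnm3, a dynamin, was at 5.73 ± 5.67 and 782 ± 161 (SD, n = 3 each; interaction 5.18, SE 0.83, adjusted p = 0.0268, 4 of 10, up to 0.181, code 0.0621). Nhsl2 was at 21.7 ± 3.54 and 743 ± 45.4 (SD, n = 3 each; interaction 5.09, SE 0.99, adjusted p = 0.043, 1 of 10, up to 0.232, code 0.0873). In all 3 the Jag1 libraries were the lowest.

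Among chemokines 3 of 14 passed, all positive (median 0.43). Ccl17, a ligand of CCR4 and the most abundant of them, stood at 28755 and 29265 in TGFβ/IL-34, 53747 and 36193 with FICZ, 1882, 2643 and 1853 with Jag1, and 10265, 10248 and 8377 with both. With both agents it recovered only in part, and on the linear scale its gain with FICZ was smaller with Jag1, with a difference of −8456 normalized counts (interaction 1.59, SE 0.32, adjusted p = 0.0433, 3 of 10, up to 0.241, code 0.0752). Ccl6 and Ccl9, chemokines of myeloid cells, had 298, 471 and 133 and 98.1, 199 and 74.7 with Jag1 and 1911, 3596 and 4467 and 3625, 4522 and 4399 with both (interactions 3.95 and 3.96, adjusted p = 0.043, 3 of 10, up to 0.249, code 0.1, and adjusted p = 0.0221, 5 of 10, up to 0.126, code 0.0621). Gpnmb, a glycoprotein of lipid-laden macrophages, was the 1 of 12 macrophage and complement genes to pass (interaction 2.09, SE 0.41, adjusted p = 0.0431, 2 of 10, up to 0.249). The complement genes C1qa and C1qb had negative values that did not pass (−2.07 and −2.19, adjusted p = 0.214 and 0.14). Of 12 genes of the leukocyte integrin list, which leaves out Itga2b (above), 1 passed. This was Itgb2, the shared chain of these integrins, at 5782 and 5210.4 in TGFβ/IL-34, 3918 and 5196 with FICZ, 1711, 1821 and 1905 with Jag1, and 3576, 3226 and 3464 with both (interaction 1.20, SE 0.23, adjusted p = 0.043, 2 of 10, up to 0.216, code 0.0974).

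Cancellation, the shape in which a level moved by FICZ alone was closer to that of neither with both, was found in 11 genes, of which 6 had a mean of at least 50 normalized counts in any group. Il2ra, the interleukin-2 receptor chain CD25, was the abundant case, at 6540.0 and 6128 in TGFβ/IL-34, 2136 and 4514 with FICZ, 2018, 3362 and 3260.5 with Jag1, and 5998, 6736 and 7700.4 with both. Libraries with FICZ or Jag1 alone lay below those with neither, and those with both overlapped them (interaction 2.30, SE 0.44, adjusted p = 0.043, 2 of 10, up to 0.219). Hells, a chromatin remodelling helicase, had 395 and 314 in TGFβ/IL-34, 94.4 and 289.9 with FICZ, 99.7, 107 and 147 with Jag1, and 398, 577 and 409 with both (interaction 3.04, SE 0.60, adjusted p = 0.0431, 2 of 10, up to 0.216, code 0.0674), with FICZ libraries that differed widely. Egf was at 80.4 and 117 in TGFβ/IL-34, 25.6 and 29.7 with FICZ, 47.3, 68.3 and 102 with Jag1, and 148, 173 and 117 with both, where FICZ alone gave the lower values (interaction 2.83, SE 0.55, adjusted p = 0.043, 2 of 10, up to 0.249, code 0.101). Ms4a4c (interaction 5.96, SE 1.19, adjusted p = 0.0433, 1 of 10, up to 0.26, code 0.0614) and D130040H23Rik (interaction 3.82, SE 0.76, adjusted p = 0.0433, 1 of 10, up to 0.249, code 0.101) stood lower, and Cnih2, an accessory protein of glutamate receptors, higher (interaction −4.74, SE 0.91, adjusted p = 0.043, 1 of 10, up to 0.148, code 0.0707), with FICZ or Jag1 alone than with both. These 6 genes passed in no more than 2 of the 10 left-out fits each.

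Genes that define Langerhans cells gave no interaction that passed. Of 12 tested none passed by limma, 1 positive and 1 negative had an unadjusted p under 0.05, and the median was −0.05. Cldn1, a tight junction protein, stood at 6561 and 6161 in TGFβ/IL-34, 449 and 2083 with FICZ, 14946, 15498 and 14743 with Jag1, and 1148, 705 and 2679 with both. Libraries with FICZ lay below those without it in both settings, and its interaction was −0.82 (adjusted p = 0.579). Mfge8, a bridge to apoptotic cells, had an interaction of −1.29 (adjusted p = 0.209), Cd207 −1.89 (adjusted p = 0.436), Epcam −0.52 (adjusted p = 0.459) and Id2, a transcription factor that Langerhans cells need, 0.65 (adjusted p = 0.3). Cd207 was down to a few reads in 4 of the 5 libraries with FICZ, which limits what its interaction can show. The standard error of the interaction was 0.43 on the log2 scale for the median gene, and the smallest interaction that passed was 1.11. Genes of MHC class II and presentation gave none that passed of 12, with 6 negative at an unadjusted p under 0.05 (median −0.80), such as H2-Ab1 (−1.14, adjusted p = 0.199) and Cd74 (−0.99, adjusted p = 0.301). All 20 cytosolic ribosome genes had negative values and 15 an unadjusted p under 0.05, with none that passed (median −1.10), and their summed share was highest in the first FICZ library, as given above. No gene passed by limma among those of interferon response (17 tested, 4 at an unadjusted p under 0.05), sterol and fatty acid synthesis (16, 1), cytokines (13, 3), the TGFβ pathway (15, 3), glutathione and oxidative stress (14, 7), oxidative phosphorylation (19, 4), Toll-like receptors (13, 5) and Src family and proximal kinases (11, 5). Beside the 18.8% of all genes at such a p, the counts for interferon response, cytokines, the TGFβ pathway and oxidative phosphorylation are near the background, and that for sterol and fatty acid synthesis is below it. Of the last of these lists, the kinase gene Blk had 1520.1, 1033 and 948 with Jag1 and 1.71, 5.75 and 28.5 with both (interaction −5.58, adjusted p = 0.0616).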

How the data were processed

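Bulk RNA was sequenced from 11 samples of sorted EpCAM+ cells. Per the authors, salmon quantified reads on an Ensembl GRCm39 transcript model, tximport gave values per gene, and DESeq2 normalized these. The deposited values are thus a signal, normalized counts per gene. Tool versions and filters before deposit are not given in the sources used here. Over all genes 52.8% to 58.5% of low values were whole reads within 0.1 reads, so no count model was used. An estimated 20.6 to 24.3 M reads per sample lay behind the values, and intervals cover no source other than the spread between samples. Groups came from the sample labels.

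Where 2 or more samples reached a value of 10, the gene was fitted as log2(value + 1) with limma 3.58.1 in R 4.3.3 (lmFit, contrasts.fit, trended eBayes). The model had a mean for each group and a spread per gene that all groups shared. It used all 11 samples without a covariate and left 6 residual degrees of freedom. Two-sided p-values were adjusted by the Benjamini-Hochberg method over 13095 genes, and the threshold was 0.05. Alternatives were other normalizations, pseudocounts, filters, covariates and weights, and each library left out. The script was tested on simulated data. Of the genes, 21676 matched GENCODE vM39 and 184 did not. Sequences were read with samtools 1.23.1.

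The genes, shapes and 40 gene lists were chosen with earlier results of these data known. Named were up to 12 genes per direction and 5 per shape with the largest interaction and a group mean of at least 50, genes of the lists, and others said to be chosen after their values were seen. A gene that this rule names is not reported here. All columns were mapped to samples.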

Additional observations from a re-analysis of the deposited data

Results flagged for a closer look

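The effect of FICZ differed between cultures with and without Jag1 for 182 genes by a test of the difference itself (limma, adjusted p under 0.05). For 9 of them the difference was past the threshold with any 1 library left out. The interactions of 7 were positive, at 8.55 for Cyp1b1, 4.86 for Cebpe, 4.52 for Cd93, 3.84 for Nt5e, 3.47 for Unc5b, 2.84 for Pecam1 and 2.50 for Aqp9. Those of Smim5 and Cd7 were negative, at −5.81 and −3.93. With libraries weighted by their own spread, 8 of the 182 genes passed, and Cebpe, Cd7 and Smim5 did not. In all 3 Jag1 libraries, the 9 genes lay outside the range of the other 7 libraries. That follows in part from their choice by a contrast of the same libraries. No group had 4 samples or more, so no library was examined as an outlier within its group.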

How the results depend on the processing

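Each of the 182 genes kept the direction of its interaction under those of the 25 alternatives that tested it, but the number that passed did not hold. Leaving out 1 library gave 9 to 5497 genes (7 to 2946 higher, 2 to 2551 lower), with 7 to 344 rescue, 0 to 246 synergy, 0 to 2621 cancellation and 2 to 2286 other genes. Where 1 library remained in a group, its spread was assumed equal to that of the rest. Of the 182 genes, 125 passed in no more than 3 of these 10 fits. Array weights left 8 genes (8 higher, 0 lower; 7 rescue, 0 synergy, 0 cancellation, 1 other), with 1665 at an unadjusted p under 0.05, compared with 2458 in the fit reported. A minimum change of 2-fold left 8 (6 and 2). The experiment code of the description left 44 (38 and 6; 29 rescue, 4 synergy, 1 cancellation, 10 other), while that of the authors' table gave 250, with 48 lower and 68 other. Without a filter on low values, over 16370 genes, 74 passed (55 and 19; 41, 13, 4 and 16 by shape). Within one flow cell, an alternative added after seeing the data, 28 passed (20 and 8; 19, 1, 1 and 7), and the fit there used 2 libraries fewer. Cancellation genes numbered 6 with quantile normalization, 4 with a filter of 50, 7 with a replicate block and 7 with the flow cell as a term. The cause of these differences was not tested. Quantile normalization gave 172 genes, with 129 higher and 43 lower, and pseudocounts of 0.5 and 4 gave 168 and 197.

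The replicate numbers were examined as a block. Deviations from the group means correlated across genes at 0.153, 0.122 and 0.166 between Jag1 and both, whose same-numbered samples share an experiment code, at 0.197 and 0.0880 between FICZ and Jag1 and at 0.0591 and 0.0578 between FICZ and both. Same-numbered samples of neither carry another code, and pairs with neither that share a code in the descriptions were at −0.0417 to 0.0123. Every pair with a shared code among FICZ, Jag1 and both was thus positive. Pairs of these groups with different codes ran from −0.197 to 0.132. Deviations within a group cancel, so these signs are not independent. Pairs with neither did not share the pattern, and the fit reported held no block. Its p-values make no allowance for a shared experiment, and the part of the experiment in the results was not tested. With the code of the descriptions as a block 41 of the 182 genes kept their call. With the replicate block 204 genes passed, 138 of them among the 182.

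Single genes without a call changed sign. With 1 library left out, Kit ranged from −0.53 to 0.11, Ahr from −0.54 to 1.21, Mpo from −2.78 to 0.60 and Cldn1 from −1.93 to 0.28. Kit was 0.0702 with array weights, Ahr −0.0549 with the experiment code of the description and −0.41 within one flow cell, and Mpo 0.62 within one flow cell. As a difference of differences in normalized counts, 8 of the 182 genes changed sign. Among those named these were Cyp1b1 (−276), Cyp1a1 (−1283), Mmp8 (−155), Ccl17 (−8456) and Cpa3 (−439). Genes of a few reads in the Jag1 libraries have interactions whose size is set by the pseudocount.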
